A study of Mus musculus with 14 samples.

Results

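The genes of glycolysis, the pentose phosphate pathway and the response to low oxygen were followed in lung tumors driven by c-Myc. A list of 45 genes was taken, and every probe set whose only gene symbol in the platform annotation was a listed gene counted as a member. Of the 45 genes, 36 had such a probe set, out of 8252 genes with one, and these were 56 of the 12488 probe sets of the array, 10 of them control probe sets for Gapdh and Pcx. Another 9 genes (Hk3, Gpi1, Pfkfb1, Eno1, Pdk2, G6pdx, Pygl, Egln3 and Car9) matched no probe set of that single symbol and were not analysed here. Of the 46 member probe sets that were no control probe sets, 39 probe sets of 33 genes reached a signal of 70 on at least 3 arrays and were tested. The other 7 did not, and 2 genes, Pgam2 and Fbp1, had no probe set past this filter.

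RNA was measured on 14 Affymetrix U74v2 arrays of mice of the CD2F1-(DBA/2xBalb/C) background aged 9 to 13 months. Tumors came from hemizygous SPC/myc transgenic mice, in which the human surfactant protein C promoter directs c-Myc to the alveolar epithelium, and were small (1 mm, 3 arrays, each of a pool of 3 to 4 tumors), middle-sized (4 to 5 mm, 4 arrays) or large (at least 10 mm, 3 arrays). The control was lung of 4 non-transgenic mice, and all 3 tumor sizes were set against these same 4 lungs. A signal is the linear intensity of a probe set, scaled so that the trimmed mean of an array was 250. The Myc probe set had signals of 325 to 2165 in the tumors and 24.1 to 35.6 in control lung.

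The array of middle tumor 3 stood apart from the other arrays. On it 3125 values (25.0%) were at or next to 0, among them all 2445 probe sets numbered 160000 or higher, and these values were treated as missing, so that some members have 9 tumors. Of the markers of other cell types, the summed signals of endothelial, cardiac muscle, erythroid, fibroblast and adipocyte markers did not overlap between tumors and control lung, whereas those of macrophage and myeloid, club cell and neuroendocrine markers did. In the test described below, 19 of 20 endothelial, 12 of 13 cardiac muscle and 3 of 3 erythroid probe sets were called lower. For fibroblast and adipocyte markers it was only 6 of 12 and 1 of 3. Endothelial markers summed to signals of 2224 to 3946 in the tumors and 22522 to 28035 in control lung, and cardiac muscle markers to 558 to 871 in the tumors and 5200 to 9537 in control lung. The sum of alveolar type II markers, the cell type the transgene is aimed at, was 21435 to 38292 in the tumors and 19649 to 29947 in control lung. In bulk tissue, fewer cells of a type and less RNA per cell cannot be told apart.

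Glycolysis converts glucose to pyruvate, and lactate dehydrogenase reduces that pyruvate to lactate, whereas pyruvate dehydrogenase passes it to the mitochondria. The pentose phosphate pathway branches off after the first step and supplies ribose for nucleotides and NADPH for biosynthesis. Many of these enzymes are encoded by several genes that differ in tissue distribution, and many are known targets both of c-Myc, which binds the E-box CACGTG, and of the hypoxia-inducible factors, which bind the core ACGTG or GCGTG as dimers of an alpha subunit with Arnt.

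Transcripts of most enzymes on the way from glucose to lactate were higher in the tumors. The log2 fold changes of small, middle and large tumors were averaged for a test of all tumors (limma, Benjamini-Hochberg adjustment over 8127 probe sets), in which 19 of the 39 member probe sets were higher, 4 were lower and 16 were not called at an adjusted p under 0.05 against control lung. These 19 probe sets (48.7%) belonged to 16 genes, and 22.7% of all probe sets tested were called higher. For the lower calls the shares were 10.3% of the members and 20.8% of all probe sets. The median log2 fold change was 0.33 over the members and 0.03 over all probe sets. Without the array of middle tumor 3, 19 probe sets were higher and 4 lower of the 38 then tested. Every tumor lay above every control lung for 14 members, against 10.4% of all probe sets, and every tumor below every control lung for 2 members, against 12.6% of all.

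**Figure D1:**
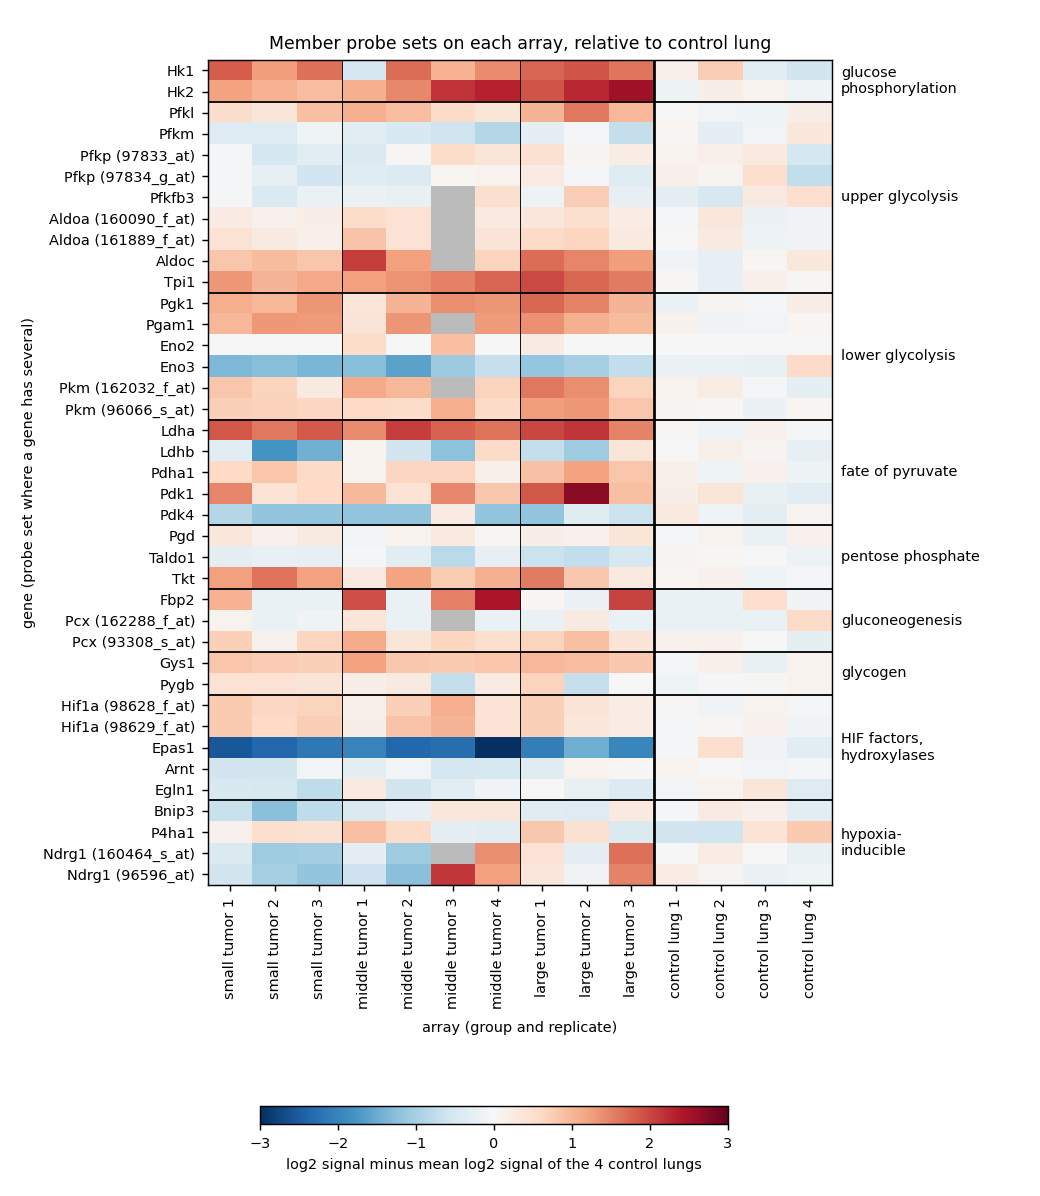
Log2 signal of the 39 member probe sets (rows, grouped by role) on each of the 14 arrays (columns, tumors left of control lung), as the difference from the mean of the 4 control lungs (colour; signals below 70 set to 70; grey, missing on the array of middle tumor 3). Ldha and Tpi1 were red in every tumor and Epas1 was blue in every tumor, whereas Ndrg1 and Fbp2 differed between tumors of the same size.

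Hexokinases phosphorylate glucose at its entry into the pathway, and the transcripts of both that could be tested, Hk1 and Hk2, were higher in the tumors. Hk2, the hexokinase typical of muscle and many tumors, had signals of 367, 329 and 299 in small tumors, 334, 432, 711 and 782 in middle tumors and 589.9, 759 and 917 in large tumors, and of 143, 178, 172 and 144 in control lung. Every tumor was above every control lung, and Hk2 rose 3.20-fold (log2 fold change 1.68 ± 0.20 (SE), adjusted p = 1.37e-05). Hk1, the widely expressed hexokinase, had signals of 6497, 4434 and 5848 in small tumors, 1313, 5976, 3821 and 4984 in middle tumors and 6272, 6878 and 5679.5 in large tumors, and of 2068, 3093, 1479 and 1259.9 in control lung. Middle tumor 1 lay within the control range and the other 9 tumors above it (log2 fold change 1.41 ± 0.33, adjusted p = 0.00289). Against control lung, Hk1 was called in small (adjusted p = 0.00984) and large tumors (adjusted p = 0.00474) and not in middle tumors (log2 fold change 0.91, adjusted p = 0.0917). A second Hk2 probe set (161313_at) stayed below 70 on all arrays with a value.

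In upper glycolysis, down to the triose phosphates, 5 of 9 probe sets were higher and none was lower. Tpi1, triosephosphate isomerase, had signals of 2537, 2069 and 2238 in small tumors, 2416, 2597, 2915 and 3432 in middle tumors and 4014, 3351 and 2997 in large tumors, and of 1055, 868, 1133 and 1057 in control lung. The lowest tumor was above the highest control lung, and Tpi1 rose 2.74-fold (log2 fold change 1.45 ± 0.12, adjusted p = 3.36e-07). Aldoc, the aldolase best known from brain, had signals of 148, 161 and 148 in small tumors, 354, 195 and 133 in the 3 middle tumors with a value and 267, 231 and 199 in large tumors, and of 78.2, 58.6, 86.7 and 103 in control lung. All 9 tumors were above every control lung, and the log2 fold change was 1.22 ± 0.22 (adjusted p = 0.000512).

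Pfkl, the liver-type subunit of phosphofructokinase, which commits sugar to glycolysis, had signals of 873 to 2029 in the tumors and 619.6 to 781 in control lung, with no overlap (log2 fold change 0.84 ± 0.15, adjusted p = 0.000502). The muscle-type subunit Pfkm had 139 to 242 in the tumors and 206 to 312 in control lung, and its log2 fold change of -0.41 ± 0.16 missed the threshold (adjusted p = 0.0592). It was called lower in middle tumors alone among the sizes (log2 fold change -0.56 ± 0.20, adjusted p = 0.0421), and in all tumors without control lung 2 (adjusted p = 0.0441), middle tumor 1 (0.0389) or large tumor 2 (0.039). The platelet-type subunit Pfkp had signals of 82.4 to 174 and 78.8 to 137 on its 2 probe sets in the tumors, and of 82.0 to 146 and 46.4 to 166 in control lung. The groups overlapped on both, and neither was called (adjusted p = 0.929 and 0.551).

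Aldoa, the main aldolase of muscle and many other tissues, was called on both probe sets with small changes. The probe set 161889_f_at had signals of 1344 to 2188 in 9 tumors and 1077 to 1454 in control lung (log2 fold change 0.45 ± 0.13, adjusted p = 0.00999). On 160090_f_at the log2 fold change was 0.33 ± 0.12 (adjusted p = 0.0347), and this call was lost without control lung 1, 3 or 4, small tumor 1 or 3, middle tumor 2 or large tumor 2 (adjusted p = 0.05 to 0.113). The suffix of both marks a probe set that may bind several members of a gene family. Pfkfb3, an enzyme that makes an activator of phosphofructokinase, had signals of 72.0 to 163 in 9 tumors and 69.7 to 137 in control lung and was not called (adjusted p = 0.929), and its second probe set (103577_at) was below 70 on all arrays.

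Lower glycolysis, in which ATP is made, held 4 higher probe sets and 1 lower probe set of 6. Pgk1, phosphoglycerate kinase, had signals of 1144, 1072 and 1328 in small tumors, 691, 1087, 1412 and 1339.7 in middle tumors and 1757, 1491 and 1088 in large tumors, and of 463, 563, 510.0 and 613 in control lung. Even the lowest tumor exceeded the highest control lung (log2 fold change 1.19 ± 0.18, adjusted p = 8.84e-05). Pgam1, phosphoglycerate mutase, had signals of 1090.2, 1334 and 1314 in small tumors, 716, 1363 and 1321 in the 3 middle tumors with a value and 1399, 1141 and 1050.2 in large tumors, and of 593, 505, 514 and 569.7 in control lung. These groups did not overlap either (log2 fold change 1.11 ± 0.16, adjusted p = 0.000101). For Pgk1 and Pgam1, as for Hk1, middle tumor 1 was the lowest tumor.

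Pkm, the pyruvate kinase of muscle and proliferating cells, had signals of 2261 to 3836 in the tumors and 1363 to 1634 in control lung (log2 fold change 0.84 ± 0.12, adjusted p = 8.26e-05). Its second probe set, 162032_f_at, had a log2 fold change of 0.92 ± 0.17 (adjusted p = 0.000802), and on both probe sets no tumor overlapped with control lung. The arrays do not tell the splice forms of Pkm apart. Gapdh was represented by control probe sets, which were added to the fit after the data had been seen. The probe sets for the 3′, middle and 5′ part of Gapdh had log2 fold changes of 1.05 ± 0.12, 1.17 ± 0.13 and 0.97 ± 0.14 (adjusted p = 1.10e-05, 6.62e-06 and 6.79e-05). Another 3 Gapdh control probe sets, with the suffix _st, were not called (adjusted p = 0.131, 0.113 and 0.579) and had signals of 137 or less on every array. The 3′ signal was 4196 to 7329 in the tumors and 2404 to 3028 in control lung, so that this gene, often used as a reference, was higher in every tumor than in every control lung. The ratio of its 3′ to its 5′ signal was 0.767 to 0.971 in the tumors and 0.757 to 0.9 in control lung.

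The enolases form phosphoenolpyruvate, the last intermediate before pyruvate. Eno3, the muscle form, went the other way, with signals of 109.6, 115 and 108 in small tumors, 114, 91.9, 130.1 and 172 in middle tumors and 125, 140.3 and 167 in large tumors, and of 246, 245, 240.3 and 418 in control lung. Every tumor was below every control lung, and Eno3 was 2.23-fold lower (log2 fold change -1.16 ± 0.19, adjusted p = 0.000193). Pgam2, the muscle mutase, reached 70 on 1 array only, of control lung 4 (89.8), and was at 1.61 to 5.62 in the tumors. Control lung 4 also had the highest Eno3 signal and the highest sum of cardiac muscle markers (9537, against 5200 to 6587 in the other control lungs). Of the 16 cardiac muscle markers on the array, 11 were below 70 in every tumor. Among these, Myl2 and Actn2 were below 70 in every control lung as well. The part of cardiac muscle in the Eno3 result was not tested. Eno2, the neuronal form, reached 70 on 3 arrays, all of tumors, and was not called (adjusted p = 0.425).

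At the fate of pyruvate the members parted. Ldha, the lactate dehydrogenase subunit that favours lactate formation, had the smallest adjusted p of all members, with signals of 5597, 4598 and 5473 in small tumors, 4068, 6452, 5222 and 4718 in middle tumors and 6131, 6801 and 4277 in large tumors, and of 1566, 1400.5, 1672 and 1494 in control lung. The lowest tumor was above the highest control lung, and Ldha rose 3.46-fold (log2 fold change 1.79 ± 0.14, adjusted p = 2.28e-07). Its fold change was nearly the same in small, middle and large tumors (log2 fold change 1.77, 1.72 and 1.88).

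Ldhb, the other lactate dehydrogenase subunit, was spread widely among the tumors, with 377, 139 and 175 in small tumors, 513, 325, 203 and 709.6 in middle tumors and 290.3, 227 and 615 in large tumors, and 483, 533, 504 and 404 in control lung. The log2 fold change in all tumors was -0.65 ± 0.33 (adjusted p = 0.134), and it was called lower in small tumors only (log2 fold change -1.19 ± 0.43, adjusted p = 0.044). Pdha1, a subunit of pyruvate dehydrogenase, had signals of 1266 to 2711 in the tumors and 1049 to 1305 in control lung, and 9 of 10 tumors were above every control lung (log2 fold change 0.68 ± 0.13, adjusted p = 0.000733).

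The member kinases Pdk1 and Pdk4, which switch pyruvate dehydrogenase off, moved in opposite directions. Pdk3, a kinase of the same family outside the members, had signals of 414 to 648 in the tumors and 234 to 392 in control lung. Pdk1, which is induced by low oxygen, had signals of 423, 204 and 233 in small tumors, 301, 205, 417 and 269.9 in middle tumors and 556, 1009 and 287 in large tumors, and of 173, 198, 132 and 123 in control lung. Every tumor was above every control lung, although small tumor 2 and middle tumor 2 lay within 10 signal units of control lung 2 (log2 fold change 1.19 ± 0.29, adjusted p = 0.00455). By size Pdk1 was called in large tumors (log2 fold change 1.83 ± 0.38, adjusted p = 0.00178) and not in small or middle tumors (adjusted p = 0.108 and 0.0636). Pdk4, the kinase of muscle and of fasted tissue, had signals of 31.8 to 189 in the tumors and 131 to 195 in control lung, with 9 of 10 tumors below every control lung (log2 fold change -0.87 ± 0.24, adjusted p = 0.00973). Of the 10 tumors, 6 were below 70 for Pdk4 and entered the fit at 70.

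**Figure D2:**
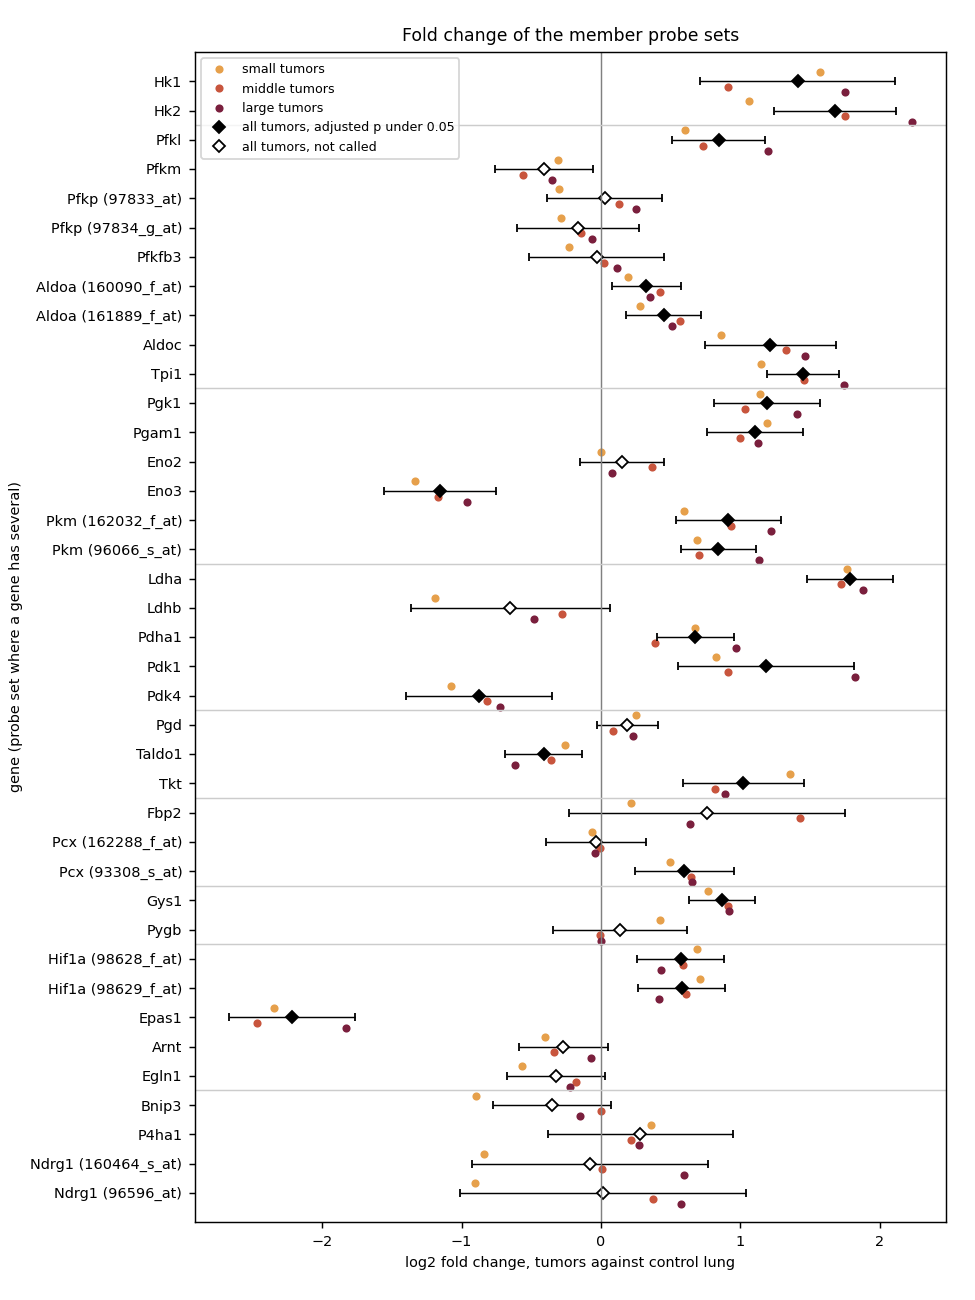
Log2 fold change of the 39 member probe sets against control lung, for all tumors (diamonds with 95% confidence interval; filled, adjusted p under 0.05; open, not called) and for each tumor size (coloured points). The filled diamonds right of 0 include Hk1, Hk2, Tpi1, Pgk1, Pgam1, Pkm and Ldha, and Epas1 lies farthest to the left.

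The pentose phosphate members did not move together. Tkt, transketolase, which links the pathway back to glycolysis, had signals of 1527, 1995 and 1482 in small tumors, 777, 1466, 1099 and 1344 in middle tumors and 1899.9, 1126 and 796 in large tumors, and of 674, 705, 588 and 622 in control lung. All tumors were above all control lungs, and Tkt rose 2.03-fold (log2 fold change 1.02 ± 0.20, adjusted p = 0.000947). Taldo1, transaldolase, had 287 to 479 in the tumors and 454 to 534 in control lung (log2 fold change -0.41 ± 0.13, adjusted p = 0.0184), and without control lung 1 (adjusted p = 0.0631) or control lung 2 (adjusted p = 0.0573) it was not called. Pgd, the dehydrogenase of 6-phosphogluconate, was not called, with 731 to 989 in the tumors and 677 to 847 in control lung (adjusted p = 0.147). Its second probe set (161975_r_at) passed 70 on 1 array.

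Of the gluconeogenesis and glycogen members, Gys1, the glycogen synthase of muscle and most other tissues, had signals of 592 to 838 in the tumors and 311 to 404 in control lung and no overlap (log2 fold change 0.87 ± 0.11, adjusted p = 2.22e-05). Pygb, the brain form of glycogen phosphorylase, overlapped between the groups and was not called (adjusted p = 0.661). Pcx, pyruvate carboxylase, rose on 93308_s_at, with 91.4 to 181 in the tumors and 64.7 to 91.5 in control lung (log2 fold change 0.60 ± 0.17, adjusted p = 0.00886), and was not called on 162288_f_at, whose signals were 57.7 to 104 in 9 tumors and 53.1 to 119.8 in control lung. Of its 4 control probe sets, both for the middle part were called higher (log2 fold change 0.91 and 0.65, adjusted p = 0.00199 and 0.00236) and those for the 3′ and 5′ part were not (adjusted p = 0.0583 and 0.26).

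The fructose bisphosphatases, which run opposite to phosphofructokinase, differed from tumor to tumor. Fbp2, the muscle form, had signals of 167, 42.3 and 27.2 in small tumors, 307, 5.83, 231 and 439.8 in middle tumors and 83.9, 71.6 and 329 in large tumors, and of 8.96, 4.26, 113 and 75.3 in control lung. Small tumor 1, middle tumors 1, 3 and 4 and large tumor 3 were above every control lung, and the difference was not called (log2 fold change 0.76 ± 0.46, adjusted p = 0.202). Fbp1, the liver form, reached 70 in middle tumors 1 and 4 only (240.4 and 81.6) and had 5.26 to 20.1 in control lung.

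Of the factors that sense oxygen, the 2 alpha subunits changed in opposite directions. Epas1, which encodes the alpha subunit HIF-2 and is known for its high level in endothelium and lung, had signals of 262, 298 and 349.8 in small tumors, 383, 301, 321 and 162 in middle tumors and 365, 553 and 398 in large tumors, and of 1482, 2172, 1426 and 1212 in control lung. Every tumor was below every control lung, and Epas1 was 4.65-fold lower (log2 fold change -2.22 ± 0.21, adjusted p = 1.30e-06), the largest change of any member in size. The sum of 14 endothelial markers, 13 of whose genes were called lower, fell with it (2224 to 3946 in the tumors and 22522 to 28035 in control lung), and the part of endothelial cells in the Epas1 result was not tested. No endothelial marker was below 70 in all tumors.

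Hif1a, the alpha subunit that drives most glycolytic targets of low oxygen, had signals of 2337, 2109.8 and 2155 in small tumors, 1503, 2247, 2878 and 1821 in middle tumors and 2221, 1770.0 and 1585 in large tumors on 98628_f_at, and of 1400.1, 1276, 1473 and 1309 in control lung. The groups did not overlap (log2 fold change 0.57 ± 0.15, adjusted p = 0.0057), and 98629_f_at gave a log2 fold change of 0.58 ± 0.15 (adjusted p = 0.0049). As for Aldoa, the suffix marks probe sets that may bind several members of a gene family. Hif1a was called in small and middle tumors and not in large tumors (adjusted p = 0.0868 and 0.0966). These are transcript levels, and the activity of HIF-1 is set mainly by the stability of its protein. Arnt, the shared partner, and Egln1, the prolyl hydroxylase that marks the alpha subunits for degradation, were not called (log2 fold change -0.27 ± 0.15 and -0.32 ± 0.16, adjusted p = 0.161 and 0.129). Egln1 was called lower without control lung 4 (adjusted p = 0.0462) or middle tumor 1 (adjusted p = 0.0471), and a second Arnt probe set (97185_at) was below 70 throughout.

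None of the 4 probe sets of the hypoxia-inducible members Bnip3, P4ha1 and Ndrg1 was called in all tumors. Ndrg1, a stress gene strongly induced by low oxygen, had signals of 338, 247 and 217 in small tumors, 322, 205, 2128 and 1157 in middle tumors and 620.3, 456 and 1379 in large tumors on 96596_at, and of 568.3, 518, 437 and 450.5 in control lung. Middle tumors 3 and 4 and large tumor 3 were the highest, small tumors 1 to 3 and middle tumors 1 and 2 were below every control lung, and the second probe set, 160464_s_at, placed the tumors with a value in a like way (323, 208 and 211 in small tumors, 355, 206 and 1131 in middle tumors, 587, 354 and 1359 in large tumors and 439.8, 503, 428 and 373 in control lung). The adjusted p was 0.983 on 96596_at and 0.894 on 160464_s_at.

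Bnip3, a mitochondrial protein of autophagy and cell death, had signals of 206, 136 and 193 in small tumors, 240.2, 276, 416 and 413 in middle tumors and 254, 249.8 and 399.9 in large tumors, and of 312, 385, 362 and 261 in control lung. The 3 small tumors were below every control lung, a difference that was called (log2 fold change -0.90 ± 0.25, adjusted p = 0.0135), while middle and large tumors were not called (adjusted p = 1 and 0.673). The highest Bnip3 signals stood in middle tumors 3 and 4 and large tumor 3, the tumors with the highest Ndrg1. P4ha1, a subunit of the collagen prolyl hydroxylase, had 176 to 446 in the tumors and 156 to 407 in control lung (adjusted p = 0.5).

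By size, 14 member probe sets were higher and 5 lower in small tumors, 16 higher and 4 lower in middle tumors, and 16 higher and 3 lower in large tumors, each against control lung. Of all probe sets 18.7% were called higher and 16.3% lower in small tumors, 14.6% and 16.2% in middle tumors, and 19.2% and 17.8% in large tumors. Hk2, Pfkl, Aldoc, Tpi1, Pgk1, Pgam1, Pkm, Ldha, Tkt and Gys1 were called higher in each of the 3 sizes, and Eno3 and Epas1 lower in each. For Pkm this held on 96066_s_at, while 162032_f_at was not called in small tumors. The lower calls in small tumors numbered 2 without small tumor 2 and 3 without small tumor 3, and those in middle tumors 2 without middle tumor 2 or 4, small tumor 1, 2 or 3 or control lung 1, 3 or 4. Among members called in only 1 or 2 sizes, the difference between sizes was not called in any case.

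Between the sizes no member passed the adjusted threshold in the limma fit. Called were 0% of all probe sets in large against small tumors, 0% in large against middle tumors and 0% in small against middle tumors. At an unadjusted p under 0.05 there were 9 member probe sets of 39 (23.1%) in large against small tumors, all higher in large tumors, and 650 of 8127 probe sets (8%) in all. For large against middle tumors it was 5 members and 812 probe sets, and for small against middle tumors 2 members and 503 probe sets. With the methods' t-test, adjusted in the same way, no member differed between large and small tumors either. With p under 0.05 and a 3-fold change 1 did, Ndrg1 on 96596_at, against 4 higher and 10 lower of all 8127 probe sets.

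The 9 probe sets belonged to Hk2, Pfkl, Tpi1, Pkm, Pdk1, Bnip3 and Ndrg1, which are named here after their values were seen. Hk2 had the smallest p of them, with 589.9, 759 and 917 in large tumors and 367, 329 and 299 in small tumors (log2 fold change 1.17 ± 0.28, 95% interval 0.57 to 1.77, adjusted p = 0.188). All 3 large tumors were above all 3 small tumors, and with array weights, which give noisier arrays less influence, Hk2 was called (adjusted p = 0.0178). For Tpi1 the interval of the log2 difference was 0.24 to 0.95 (adjusted p = 0.305), and for Ndrg1 on 96596_at it was 0.06 to 2.89 (adjusted p = 0.603). Ldha gave an interval of -0.31 to 0.54, around 0.

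**Figure D3:**
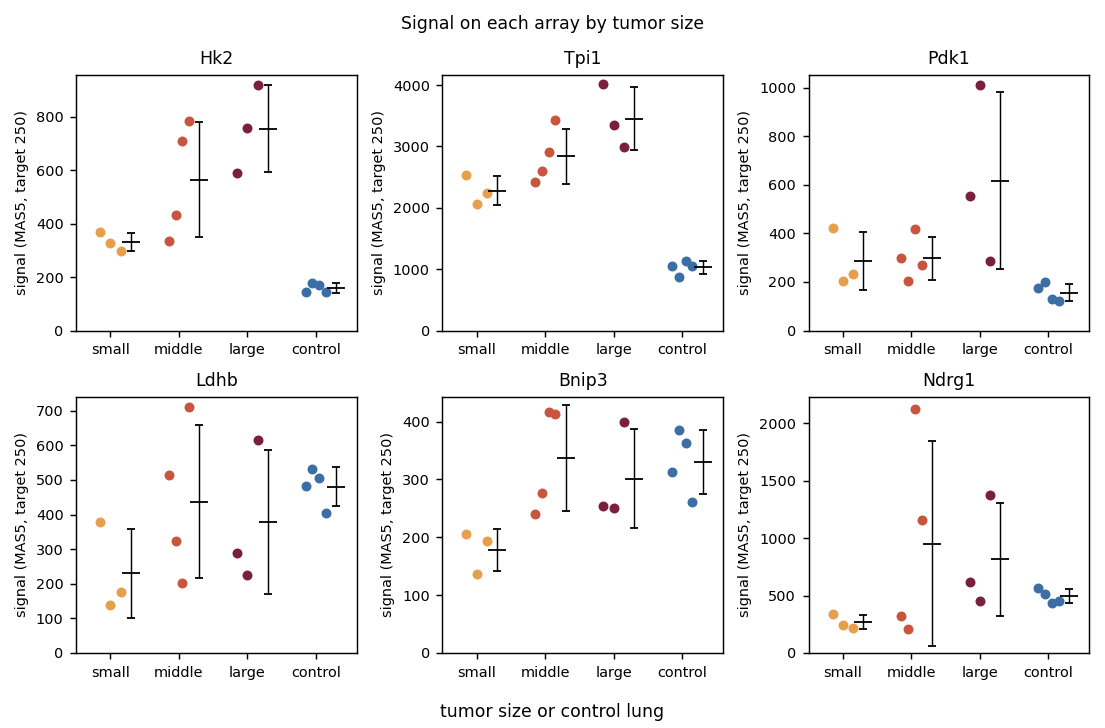
Signal (linear, starting at 0) of 6 members on each array, by tumor size left of control lung; points are arrays and the bars beside them are mean and SD. Large tumors were above small tumors for Hk2 and Tpi1, and middle tumors 3 and 4 and large tumor 3 held the highest Ndrg1 and Bnip3 signals (Ndrg1 on 96596_at).

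Genes that encode alternative forms of one enzyme were set against each other within each array, which takes out the scaling of the array. The log2 signal of one gene minus that of the other was compared between the 10 tumors and the 4 control lungs by an exact two-sided permutation test over samples, with Benjamini-Hochberg adjustment over the 9 of 14 listed pairs in which both genes had a probe set. Other pairs of members were not tested. Only the change of such a difference has a meaning, since probe sets differ in their response. In 2 of these pairs a gene was below the filter (Pgam2 and Fbp1), and they give no change between isozymes. Of the other 7 pairs, 5 changed, and 4 of these reached the smallest p that exact permutation of 10 against 4 arrays allows (p = 0.002, adjusted p = 0.0045).

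The difference between Hif1a and Epas1 was 2.64 ± 0.59 in the tumors (SD, n = 10) and -0.17 ± 0.40 in control lung (SD, n = 4), a shift of 2.81 toward Hif1a (exact permutation p = 0.002, adjusted p = 0.0045). For Ldha and Ldhb it was 4.07 ± 0.92 in the tumors (SD, n = 10) and 1.68 ± 0.21 in control lung (SD, n = 4), a shift of 2.40 toward Ldha (exact permutation p = 0.002, adjusted p = 0.0045). All 10 tumors lay above all 4 control lungs in both pairs. With 6 of 10 tumors entering at 70 for Pdk4, Pdk1 over Pdk4 shifted by 2.03, with 1.98 ± 0.63 in the tumors (SD, n = 10) and -0.05 ± 0.36 in control lung (SD, n = 4) (exact permutation p = 0.002, adjusted p = 0.0045). Pfkl over Pfkm shifted by 1.25, with 2.70 ± 0.30 in the tumors (SD, n = 10) and 1.44 ± 0.15 in control lung (SD, n = 4) (exact permutation p = 0.002, adjusted p = 0.0045), again without overlap. Aldoa lost ground to Aldoc, with 4.10 ± 0.37 in the tumors (SD, n = 9) and 4.99 ± 0.44 in control lung (SD, n = 4) (exact permutation p = 0.00559, adjusted p = 0.00839), and 8 of 9 tumors were below every control lung. Aldoa stood here on 160090_f_at, which may bind several members of the family and whose own call depended on single arrays. Aldoc of control lung 2 entered at 70. Hk2 against Hk1 and Pfkp against Pfkm overlapped between tumors and control lung, with shifts of 0.33 and 0.46 that were not called (exact permutation adjusted p = 0.458 and 0.244).

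**Figure D4:**
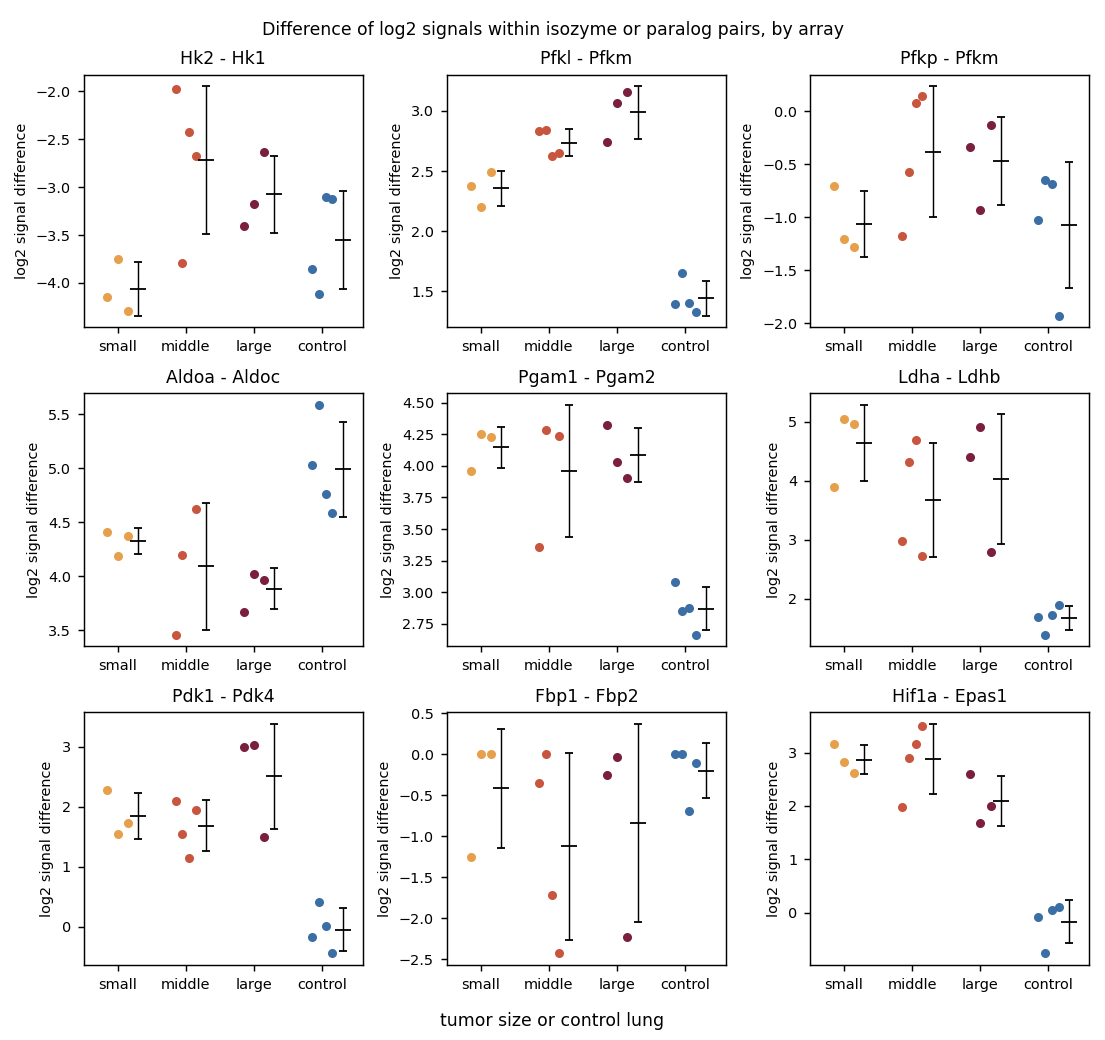
Difference of the log2 signals of 2 genes on each array (vertical axes, log2 units), for 9 pairs of isozymes or paralogs, by tumor size left of control lung; points are arrays and the bars beside them are mean and SD. For Pfkl and Pfkm, Ldha and Ldhb, Pdk1 and Pdk4 and Hif1a and Epas1 every tumor was above every control lung, while Hk2 and Hk1 overlapped. Pgam2 entered at 70 on all arrays but that of control lung 4, and Fbp1 on all but those of middle tumors 1 and 4.

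The promoters bear on c-Myc through the E-box, so the windows from 250 bases before to 50 bases after each start site in RefSeq (GRCm38.p6) were searched for CACGTG and for the core ACGTG or GCGTG on either strand. CACGTG reads the same on both strands and holds ACGTG. Of the 36 genes, 34 matched a window, and Epas1 and Ndrg1 did not. The members had 47 windows counted. Any member window on a single excluded chromosome was not counted, while the count over all windows had no such exclusion. CACGTG was in 7 of the 47 windows (14.9%) and in 7.2% of all 32851 windows, and the core was in 35 of 47 (74.5%) and in 43.8% of all windows. Among genes called higher, 3 of 16 held CACGTG (Ldha, Hif1a and Pcx), and among genes not called it was 4 of 12 (Pfkm, Pfkfb3, Fbp2 and Bnip3).

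The Ldha window is shown whole because Ldha had the smallest adjusted p and was the only member with 2 matches, which begin 145 and 48 bases before the start site (capitals mark CACGTG). It lies at chr7:46845554-46845853 on the plus strand.
Ldha promoter: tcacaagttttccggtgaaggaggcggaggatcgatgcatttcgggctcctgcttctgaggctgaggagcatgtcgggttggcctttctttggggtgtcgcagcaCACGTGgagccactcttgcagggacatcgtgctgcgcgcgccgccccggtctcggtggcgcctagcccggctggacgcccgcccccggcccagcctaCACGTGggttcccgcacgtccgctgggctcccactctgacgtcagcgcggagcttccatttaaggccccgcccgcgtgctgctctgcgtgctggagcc
The matches of other members are shown with up to 10 bases on each side, to set the flanks of called and uncalled genes beside each other (capitals mark CACGTG). That of Hif1a is at chr12:73907722-73907747 (plus strand), that of Pcx at chr19:4510222-4510239 (plus), that of Pfkm at chr15:98092443-98092468 (plus), that of Fbp2 at chr13:62858427-62858452 (minus), that of Pfkfb3 at chr2:11502128-11502153 (minus) and that of Bnip3 at chr7:138909599-138909624 (minus).
Hif1a: cacagacaagCACGTGagcggggcag
Pcx: ccCACGTGaggctttcaa
Pfkm: ttaagtatgcCACGTGaagtaagtaa
Fbp2: ctatctgagtCACGTGgggtggggtt
Pfkfb3: cccttctctcCACGTGaaagggggct
Bnip3: gcacgcgccgCACGTGccacacgctc
A match is a description of these letters and no measure of binding, and Pfkm, Fbp2, Pfkfb3 and Bnip3 hold the same 6 letters without a call in all tumors.

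Of a list of 76 other genes of these pathways, 58 were on the array and 46 passed the filter. In all tumors 17 of the 46 genes were higher, 7 lower and 22 not called. By probe set 33.3% were higher and 15.7% lower, against 22.7% and 20.8% of all probe sets tested. Higher by at least 1 on the log2 scale were Bhlhe40, Ddit4, Mxi1, Kdm3a, Car12, Pgls, the lactonase of the pentose phosphate pathway, and the phosphoglucomutase Pgm1. Apart from the glycolytic enzymes, genes known to be induced by low oxygen stood on both sides. With a log2 change of at least 1, Bhlhe40, Ddit4, Mxi1, Kdm3a and the member Pdk1 were higher, and Vegfa and Lox were lower. Of the genes short of that limit, Adm was lower, while every tumor was above every control lung for Cited2 and Stc2. The members Bnip3, P4ha1 and Ndrg1 were not called. Bhlhe40, a transcriptional repressor, had 432 to 1033 in the tumors and 183 to 293 in control lung (log2 fold change 1.54 ± 0.20, adjusted p = 2.51e-05). Ddit4, an inhibitor of mTORC1 signalling, had 567 to 1276 in the tumors and 272 to 366 in control lung (log2 fold change 1.30 ± 0.18, adjusted p = 4.27e-05), and Pgls had 419.9 to 1062 in the tumors and 293 to 399 in control lung (log2 fold change 1.26 ± 0.19, adjusted p = 0.000122). These 3 genes showed no overlap between tumors and control lung.

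Pgm1 had a log2 fold change of 1.56 ± 0.25, Kdm3a, a histone demethylase, of 1.15 ± 0.19 and Mxi1, a repressor that competes with Myc for Max, of 1.05 ± 0.10. Car12, a membrane carbonic anhydrase, was below 70 in every control lung and at 78.7 to 296 in the tumors, at least 2.08-fold higher. It passed the filter only through the tumors, and its control lungs all entered at 70, so that the filter fixed its direction. Vegfa, the endothelial growth factor, was lower (322 to 1291 in the tumors and 1056 to 1255 in control lung, log2 fold change -1.08 ± 0.27, adjusted p = 0.00422). Adm, which encodes the peptide adrenomedullin and is named here after its values were seen, had 14.4 to 113 in the tumors and 87.5 to 174 in control lung (log2 fold change -0.58 ± 0.17, adjusted p = 0.0126).

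Also lower by at least 1 were Gyg, the primer protein of glycogen (log2 fold change -1.93 ± 0.21 and -1.52 ± 0.20 on its 2 probe sets), Lox, a collagen cross-linking oxidase (-1.86 ± 0.24), and Bpgm, the bisphosphoglycerate mutase of red cells (-1.45 ± 0.40). Fibroblast markers summed to 1705 to 4940 in the tumors and 10485 to 12956 in control lung, and erythroid markers to 1175 to 5130 in the tumors and 7556 to 15507 in control lung. Their part in the Lox and Bpgm results was not tested. The fibroblast markers did not fall together. Inmt had 119 to 1603 in the tumors and 5165 to 7688 in control lung, while the signals of the collagens Col1a1, Col1a2 and Col3a1 overlapped between the groups. Pgm2, a phosphoglucomutase, and Pygm, the muscle glycogen phosphorylase, were below 70 in every tumor with a value and were at least 2.35-fold and 2.06-fold lower. Both passed the filter only through control lung, which fixed their direction.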

How the data were processed

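The deposited signal intensity of each probe set was computed by the authors with MAS5, which scaled every array to a target of 250. The members and lists were chosen with earlier results of these data known. Signals below 70 were set to 70 before log2, probe sets at 70 or more on at least 3 arrays were kept, and the 66 control probe sets were left out. All 14 arrays entered 1 fit with limma 3.58.1 in R 4.3.3 (eBayes with a trend), and p-values were adjusted by Benjamini-Hochberg over the 8127 probe sets tested. The pairs were tested with scipy 1.17.1. Of the 12422 probe sets that were no controls, 10833 had 1 gene symbol in the platform annotation, 396 several and 1193 none. The 3125 values of middle tumor 3 at or next to 0 were treated as missing. Its trimmed mean was 195.8 with these values and 277.2 without them. The number of arrays limits the precision. The scripts were tested on simulated data.

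Members called in all tumors with a log2 change of at least 1 were given with the value of every sample, other called members with both groups' values, and members not called with ranges and counts, with further samples shown for Ldhb, Fbp2, Bnip3, Ndrg1 and Hif1a after their values were seen. Other pathway genes were named if called with a log2 change of at least 1. Adm, Cited2, Stc2 and Pdk3 were named outside this rule, after their values were seen. Alternatives were other floors, filters, scalings, spread estimates, probe set choices, array weights, a replicate block, the methods' t-test, only the groups compared, and each array left out.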

Additional observations from a re-analysis of the deposited data

Results flagged for a closer look

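In 11 of 108 groups of member signals looked at (10.2%), 1 sample lay far from the others by Dixon's ratio, the gap to its neighbour divided by the range of the group. The ratios were taken on log2 signals after signals below 70 were set to 70, so they do not follow from the signals printed here. Chance gives about 1 in 20 for independent groups of normal values. Signals set to 70 are tied, and middle tumors are part of all tumors, so the share found here cannot be set against that.

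Of these, 3 concerned all tumors, and each time middle tumor 1 was the low sample. It had an Hk1 signal of 1313, against 3821 to 6878 in the other tumors (ratio 0.645), a Pgk1 signal of 691, against 1072 to 1757 (ratio 0.471), and a Pgam1 signal of 716, against 1050.2 to 1399 (ratio 0.571). The same tumor had the lowest Myc signal of the tumors (325), and a link between Myc and these signals was not tested.

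Within middle tumors, tumor 3 stood apart for Pkm on 96066_s_at (3319, against 2261 to 2365 in the others, ratio 0.883), for Pdk4 (189, against 31.8 to 65.0, all of which entered at 70, ratio 1) and for Pygb (135.9, against 249.6 to 268.8, ratio 0.891). Middle tumor 1 stood apart for Gys1 (838, against 619 to 643, ratio 0.877).

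Within control lung, lung 4 was high for Eno3 (418, against 240.3 to 246 in the other lungs, ratio 0.958) and for Pcx on 162288_f_at (119.8, against 53.1 to 70.2, those below 70 entering at 70, ratio 0.994). Control lung 3 was low for Pkm on 96066_s_at (1363, against 1596 to 1634, ratio 0.872) and high for Fbp2 (113, against 4.26 to 75.3, those below 70 entering at 70, ratio 0.847).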

How the results depend on the processing

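Over all alternatives 364 of the 392 counts of called members stayed within 1.5 times the reported count. These include the comparisons between sizes, where the reported count of 0 moved only with array weights and the methods' t-test with a 3-fold change. Direction and call were kept by 981 of 1043 log2 fold changes and all 147 pair differences. Fitting only the groups compared left the test of all tumors unchanged, so its log2 fold changes there were the same by construction. The methods' t-test with p under 0.05 and a 3-fold change, without the authors' change calls, called 2 members higher and 1 lower in all tumors. Of all 8127 probe sets it called 151 and 341. It called 1 and 1 in small tumors (177 and 344 of all), 2 and 1 in middle tumors (118 and 332), and 5 and 1 in large tumors (189 and 419). In large against small tumors it called 1 member higher (4 of all). Adjusted, the same t-test called 8 higher and 2 lower in middle tumors (517 and 826 of all). Array weights gave 11 lower in small tumors (1986 of all) and 1 higher in large against small tumors (17 of all). Fitting only the groups compared gave 8 lower in small (1517 of all) and 2 lower in middle tumors (1051 of all). Median scaling and no filter each gave 2 lower in middle tumors (1030 of 8103 and 1160 of 12422 in all). With each array left out in turn, 18 to 19 members were higher and 3 to 6 lower in all tumors, 12 to 16 and 2 to 6 in small tumors, 14 to 18 and 2 to 4 in middle tumors, and 13 to 18 and 3 to 4 in large tumors. The cause was not tested.

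Median scaling moved the median of all log2 fold changes to 0.14, against 0.03 as reported, and the share of higher among all calls to 62.9%, against 52.2%. Members were then 20 higher and 3 lower, against 2350 and 1385 of all 8103 probe sets. Taldo1 lost its call (adjusted p = 0.0875) while Pgd gained one (0.0231). Array weights called Pfkm, Egln1 and Pgd (adjusted p = 0.0288, 0.015 and 0.0386).

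With a replicate block 18 members were higher and 4 lower in all tumors (1721 and 1616 of all 8127) and 2 lower in middle tumors (1258 of all). Aldoa on 160090_f_at lost its call with this block of replicate numbers (adjusted p = 0.0746). The numbers do not pair the arrays, since each came from other animals and the 19 same-numbered pairs correlated by -0.235 to 0.113.

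With the values of 0 on middle tumor 3 kept, 15 members were higher and 4 lower, against 1509 and 1580 of all 8127 probe sets. Aldoa on 160090_f_at turned to -0.15, and Pgam1, Aldoa on 161889_f_at and Pkm on 162032_f_at lost their calls (adjusted p = 0.332, 0.956 and 0.487). The other changes of sign were in members not called. Pfkfb3 became 0.0934 by quantile normalization, 0.0819 by median scaling, 0.14 with array weights and 0.0661 with the replicate block, and ran from -0.19 to 0.13 with arrays left out. Pcx on 162288_f_at became 0.0601 with no floor and with a floor of 35, 0.0631 with array weights, 0.0357 by quantile normalization and 0.0073 by median scaling, and ran from -0.10 to 0.16. Ndrg1 became 0.053 by median scaling and 0.0621 with the block on 160464_s_at (-0.31 to 0.10) and -0.14 with array weights on 96596_at (-0.18 to 0.20). Pfkp on 97833_at became -0.0753 with array weights and -0.0078 with the block (-0.15 to 0.12), and 97834_g_at ran from -0.41 to 0.0017.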
